A study of Homo sapiens with 4 samples.

Results

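The 37 genes described here encode the transcription factor NRF2 and its partners, enzymes that NRF2 switches on, genes of lipid peroxidation and ferroptosis, superoxide and peroxide enzymes, and genes of iron uptake, storage and sensing. They were taken as a list of gene symbols chosen by known function, with earlier results of these data known. Counts set beside the shares of all genes are thus descriptions only. A gene was counted as measured where at least 1 library had 1 CPM or more, CPM being counts scaled to a common library total. By that rule 36 of the 37 were measured, among 15989 measured genes in all. The gene left out is SLC40A1, the cellular iron exporter ferroportin, which reached at most 0.440 CPM, and the lowest gene inside the rule is OSGIN1, at 8.44 CPM in its highest library.

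NRF2, encoded by NFE2L2, is held at a low level by KEAP1, which directs it to degradation; oxidants and electrophiles relieve this, and NRF2 then binds antioxidant response elements with small MAF proteins and raises genes for glutathione, thioredoxin and NADPH supply, while BACH1 occupies the same elements as a repressor. Ferroptosis is an iron-dependent cell death driven by lipid peroxides, which GPX4 removes with glutathione and which ACSL4 favours by supplying polyunsaturated lipids. Iron enters cells through the transferrin receptor and is stored in ferritin, and doxorubicin, an anthracycline whose use is limited by damage to the heart, is known for redox cycling and for disturbing iron handling in cardiac cells.

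AC16 is an established human line made from adult ventricular heart cells fused with transformed fibroblasts, and the labels call its cell type cardiomyocyte. Poly(A) RNA was sequenced from untreated cells (0 min) and from cells in 10 nM doxorubicin for 10, 30 or 360 min, with 1 library at each of the 4 times. The study asked how transcript levels move during the exposure. The treated cells also lost their serum-containing medium and were rinsed before drug was added without serum, and it is not stated whether the 0 min cells were handled this way, so drug, medium change and serum loss cannot be told apart.

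The libraries held 55156612 to 56875881 deposited counts. With no replicates, no p-value was computed, every difference is between 2 libraries, and all comparisons with 0 min share 1 untreated library. A range after a fold or ratio is a 95% counting interval, which covers counting error only. The 10 min library stood apart: 1728 of 11885 genes passed the size rule described next against 0 min, compared with 784 of 11538 at 30 min and 759 of 11517 at 360 min. Of 15 cardiomyocyte markers 8 reached 1 CPM, with summed levels of 119, 142, 218 and 153 CPM at 0, 10, 30 and 360 min (82.1, 86.5, 95.6 and 91.6 CPM without NPPB, which had 123 CPM at 30 min). TNNT2, TNNI3, MYH6, MYH7 and ACTN2 stayed below 1 CPM and PLN was at 0 in every library. Of 12 fibroblast markers 7 reached 1 CPM, with sums of 10528, 13711, 9030.4 and 8943 CPM, while DCN and LUM were at 0. Endothelial markers (2 of 7 at 1 CPM) summed to 19.1, 41.1, 19.1 and 17.4 CPM with KDR at 0, and immune markers (2 of 7) to 30.7, 57.3, 33.2 and 29.9 CPM with PTPRC at or below 0.218 CPM. Fibroblast, endothelial and immune sums were each highest in the 10 min library. There CD68 alone held 55.8 CPM of the immune sum, and TIE1 held 29.5 CPM of the endothelial sum. Of the 7 fibroblast markers compared, 6 lay above their 0 min level at 10 min and 1, S100A4, below it (ratio 0.843). These sums thus rest on few genes and do not by themselves show a change in cell makeup. The part of these sums in the 10 min values was not tested. In bulk RNA, fewer cells of a type and less RNA per cell cannot be told apart.

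Of the 36 genes, 4 passed a size rule of 2-fold against 0 min at each time, a share below that of all genes at 10 min and above it at 30 and 360 min. The rule asked for a ratio of 2-fold or above, a level of 5 CPM or above in either library and a counting interval clear of 1; levels are CPM scaled between libraries, from annotated transcripts summed per gene. Against 0 min, 4 of 36 passed at 10 min (STEAP3, CYBRD1 and IREB2 higher, NFE2L2 lower), where 14.5% of all genes compared did so, 7.57% as higher and 6.97% as lower. At 30 min 4 of 36 passed (SLC7A11 and CYBRD1 higher, OSGIN1 and IREB2 lower), where 6.79% of all genes did, 3.57% as higher and 3.22% as lower. At 360 min it was again 4 of 36 (STEAP3 and CYBRD1 higher, OSGIN1 and PRDX6 lower), where 6.59% of all genes did, 3.28% as higher and 3.31% as lower. The genes' median log2 ratio to 0 min was -0.02 at 10 min, 0.03 at 30 min and 0.01 at 360 min, and the median of all measured genes was 0.01, -0.00 and 0.01. Within 1.25-fold of the 0 min level lay 20, 23 and 22 of the 36 genes at 10, 30 and 360 min, beside 41.5%, 66.9% and 72.1% of all genes compared. The highest library exceeded the lowest by a median of 1.43-fold, and by less than 1.5-fold for 21 of 36 genes (58.3%); over all 12139 genes at 5 CPM or more the median was 1.56-fold and 5446 genes (44.9%) stayed under 1.5-fold. The 30 min library held the highest value for 16 genes and the 10 min library for 12, and the 10 min library held the lowest for 14. The matching shares over all genes are not given here, and the 10 min library stood apart for all genes too.

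The choice of transcript models decided several of these calls. The deposited counts share reads between annotated transcripts and models assembled from these libraries, and the assembled models hold 10.7% to 11.7% of counts. For 34 of the 36 genes the whole assembly locus, annotated and assembled models together, could be compared; MAFG and OSGIN1 share theirs with neighbours. On whole loci only CYBRD1 passed at 10 min (10.3% of all loci compared passed), SLC7A11 and CYBRD1 at 30 min (2.90%), and CYBRD1 at 360 min (1.94%). CYBRD1 at all 3 times and SLC7A11 at 30 min therefore passed on both measures, while the calls of PRDX6, IREB2 and STEAP3 did not, and NFE2L2 missed 2-fold narrowly on its locus.

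**Figure D1:**
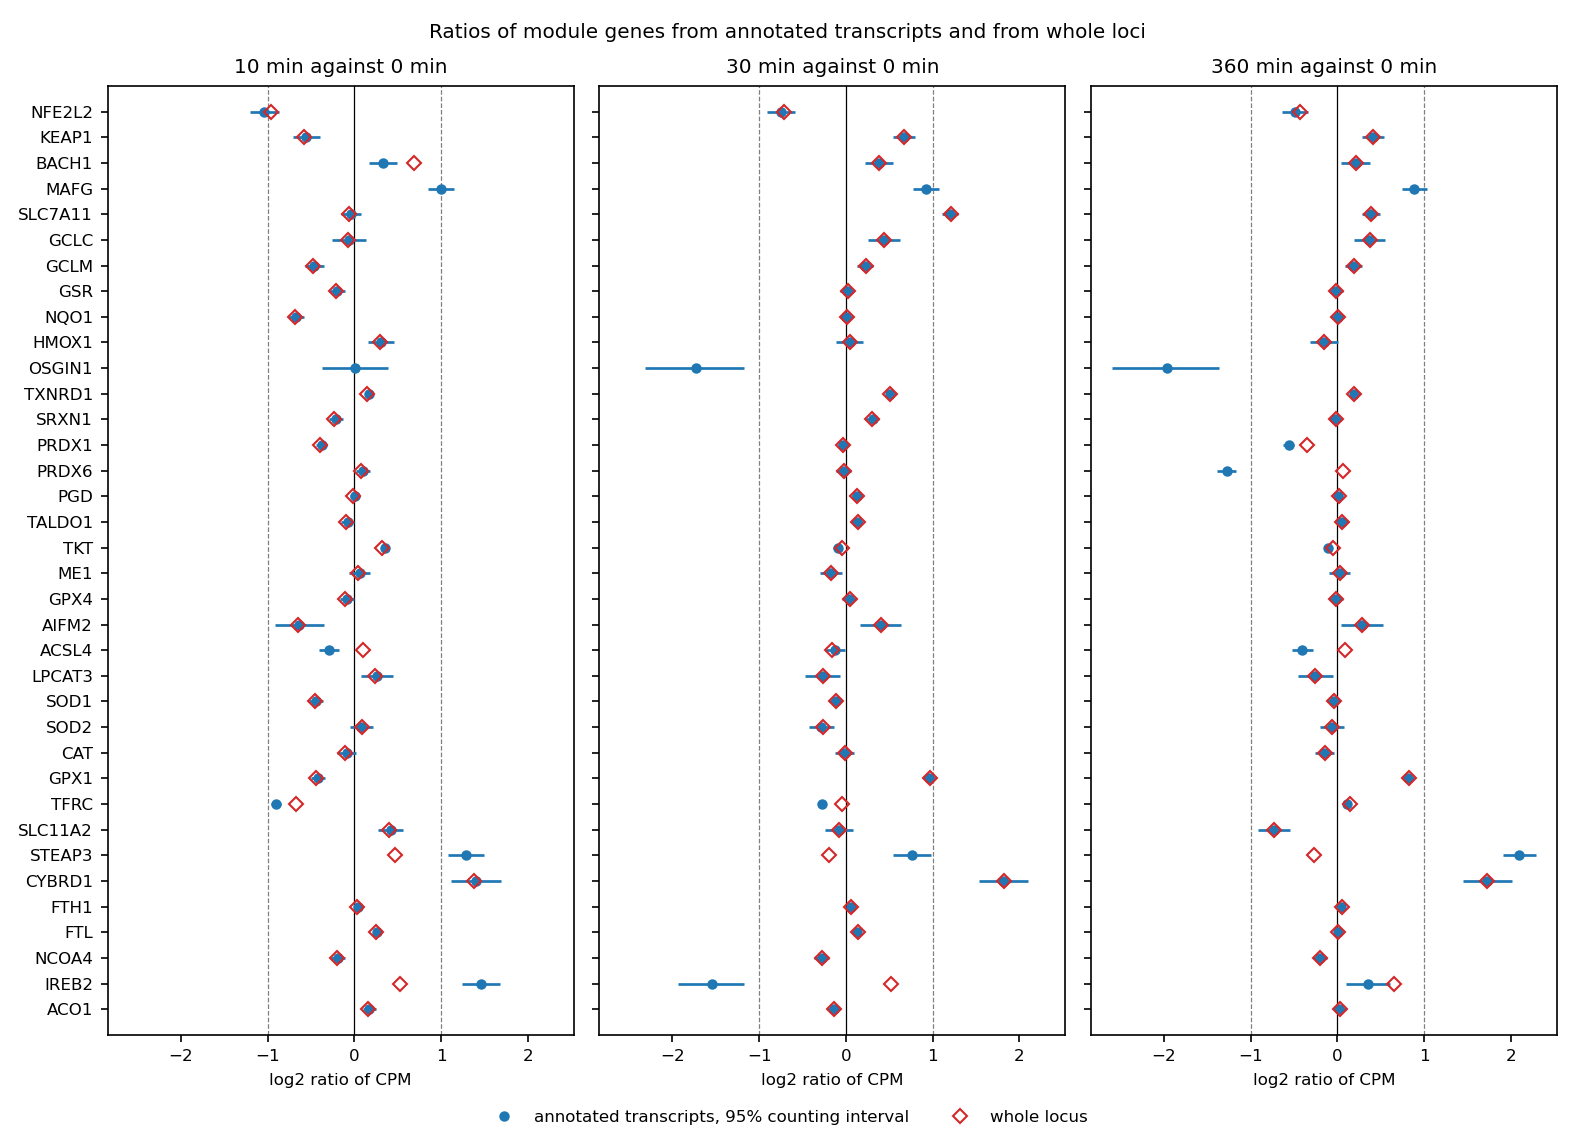
Log2 ratio of CPM to the 0 min library for each measured gene at 10, 30 and 360 min, from annotated transcripts (blue points with 95% counting intervals) and from whole loci (open red diamonds), with dashed lines at 2-fold. The 2 measures lie on top of each other for most genes and part for STEAP3, IREB2, PRDX6, TFRC, ACSL4 and BACH1.

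Among the 4 regulators, NFE2L2 was the only one to pass the size rule against 0 min on the scaling used here. NFE2L2 (ENSG00000116044, chromosome 2, 177227595 to 177392697, minus strand, GRCh38) had 63.4, 30.9, 37.8 and 45.1 CPM at 0, 10, 30 and 360 min. Every treated library lay below the untreated library. At 10 min it was 2.05-fold lower than at 0 min (1.83 to 2.31), and at 30 and 360 min its ratios to 0 min were 0.596 and 0.711. The whole locus gave a ratio of 0.514 at 10 min, under the 2-fold limit, and 17.6% of the gene's exon bases are shared with AC019080.1 on the same strand, which reached at most 2.97 CPM. NFE2L2-201 led in all 4 libraries, with 46.7, 20.4, 32.2 and 26.9 CPM.

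KEAP1 (ENSG00000079999, chromosome 19, 10486120 to 10503741, minus strand), the adaptor that targets NRF2 for degradation, had 59.4, 40.4, 94.1 and 78.9 CPM. Its ratios to 0 min were 0.680 at 10 min, 1.58 at 30 min and 1.33 at 360 min, none past the rule. Between treated libraries it was 2.33-fold higher at 30 min than at 10 min (2.11 to 2.58), and 2.37-fold on the whole locus. BACH1, the repressor at antioxidant response elements, had 41.1, 51.7, 53.4 and 47.4 CPM; at 10 min assembled models added 14.9 CPM and took the locus ratio to 1.60. MAFG, a small MAF partner of NRF2, had 40.6, 80.9, 76.9 and 75.0 CPM. Its ratios to 0 min were 1.99 (1.80 to 2.21), 1.90 and 1.85, so all 3 treated libraries were alike. None reached 2-fold on the scaling used here. The 10 min ratio lay at the limit, where the choice between this scaling and library totals decides the call. MAFG has no locus of its own in the assembly, and its locus, with neighbours included, had 66.9, 107, 106 and 105 CPM.

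**Figure D2:**
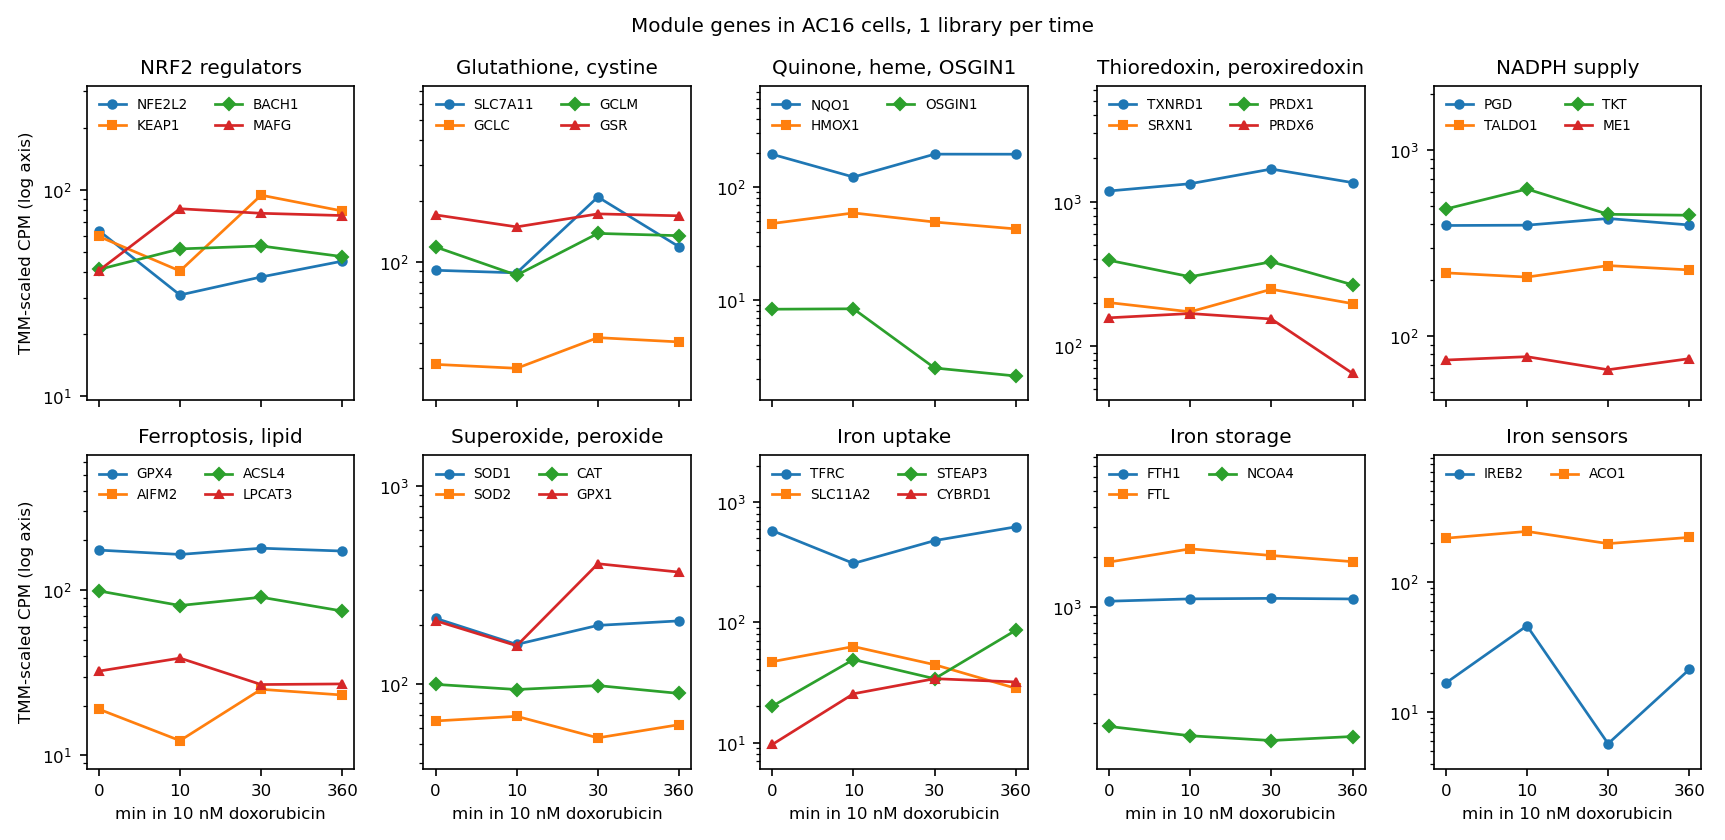
TMM-scaled CPM (log axis) of the 36 measured genes at 0, 10, 30 and 360 min in 10 nM doxorubicin, by role, with 1 library per point and lines drawn only to guide the eye. Ferritin, pentose phosphate and GPX4 lines run nearly flat, SLC7A11 and GPX1 stand high at 30 min, and OSGIN1 at 30 and 360 min and PRDX6 at 360 min stand low.

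In the glutathione and cystine group 1 of 4 genes passed. SLC7A11 (ENSG00000151012, chromosome 4, 138164097 to 138242349, minus strand), the transport subunit of the cystine importer that feeds glutathione synthesis, had 91.0, 88.4, 209 and 119 CPM at 0, 10, 30 and 360 min. The 30 min library stood above the other 3. At 30 min it was 2.30-fold higher than at 0 min (2.15 to 2.46), and the locus gave 2.31-fold. A lone transcript, SLC7A11-201, carried at least 99.4% of the annotated counts in each library, and the antisense SLC7A11-AS1, which shares 8.97% of exon bases, had at most 1.27 CPM. At 10 min its ratio was 0.971 and at 360 min 1.31.

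GCLC and GCLM encode the catalytic and modifier subunits of glutamate-cysteine ligase, the rate-limiting step of glutathione synthesis. GCLM had 119, 86.1, 138 and 135 CPM, with ratios to 0 min of 0.726, 1.17 and 1.14. GCLC had 31.2, 29.9, 42.3 and 40.3 CPM. Both were lowest in the 10 min library and highest at 30 min, within 1.5-fold of the 0 min level. GSR, which regenerates reduced glutathione, had 171, 149, 173 and 169 CPM.

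NQO1 and HMOX1, targets commonly used to read NRF2 activity, did not pass the rule at any time. NQO1 (ENSG00000181019, chromosome 16, 69706996 to 69726951, minus strand), a quinone reductase, had 195, 123, 196 and 196 CPM. Its ratio to 0 min was 0.629 at 10 min (0.592 to 0.669), 1.00 at 30 min and 1.00 at 360 min, so only the 10 min library differed by more than the counting interval. HMOX1 (ENSG00000100292, chromosome 22, 35380361 to 35394214, plus strand), which degrades heme and frees its iron, had 47.7, 59.1, 49.1 and 42.7 CPM. The ratios were 1.24 at 10 min, 1.03 at 30 min and 0.896 at 360 min.

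OSGIN1, an oxidative stress-induced growth inhibitor, was the lowest of the measured genes and passed as lower at 30 and 360 min. OSGIN1 (ENSG00000140961, chromosome 16, 83948282 to 83966332, plus strand) had 8.31, 8.38, 2.51 and 2.13 CPM. These levels rest on 473, 469, 138 and 117 deposited counts. The 2 later libraries lay below the 2 earlier ones. It was 3.31-fold lower at 30 min (2.25 to 4.99) and 3.90-fold lower at 360 min (2.59 to 6.07) than at 0 min. OSGIN1 shares its assembly locus with neighbours, and in that locus assembled models carried 5.56, 3.41, 17.1 and 13.5 CPM while the whole locus stayed at 43.5, 37.1, 42.1 and 43.3 CPM. The annotated OSGIN1 level was therefore lower in the libraries where assembled models carried more, and the part of those models in the difference was not tested.

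The thioredoxin and peroxiredoxin group held 1 call, for PRDX6 at 360 min. TXNRD1, the cytosolic thioredoxin reductase, had 1187, 1333, 1685 and 1357 CPM, with a highest ratio to 0 min of 1.42 at 30 min. SRXN1, sulfiredoxin, which repairs overoxidised peroxiredoxins, had 199.8, 172, 247 and 197 CPM, and 85.0% of its exon bases are shared with AL121758.1, at most 1.53 CPM. PRDX1, a peroxiredoxin, had 393, 302, 383 and 266 CPM, with 24.9% of exon bases shared with MMACHC on the opposite strand; at 360 min another 41.2 CPM lay in assembled models. PRDX6 (ENSG00000117592, chromosome 1, 173477266 to 173488807, plus strand), which reduces phospholipid hydroperoxides, had 157, 168, 154 and 64.6 CPM. Its annotated level at 360 min was 2.43-fold lower than at 0 min (2.24 to 2.63). In the 360 min library, however, 99.8 CPM of the same locus sat in assembled models, which held 0 in the other libraries, and the locus as a whole had 157, 166, 155 and 165 CPM, a ratio of 1.05 at 360 min (0.988 to 1.11).

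**Figure D3:**
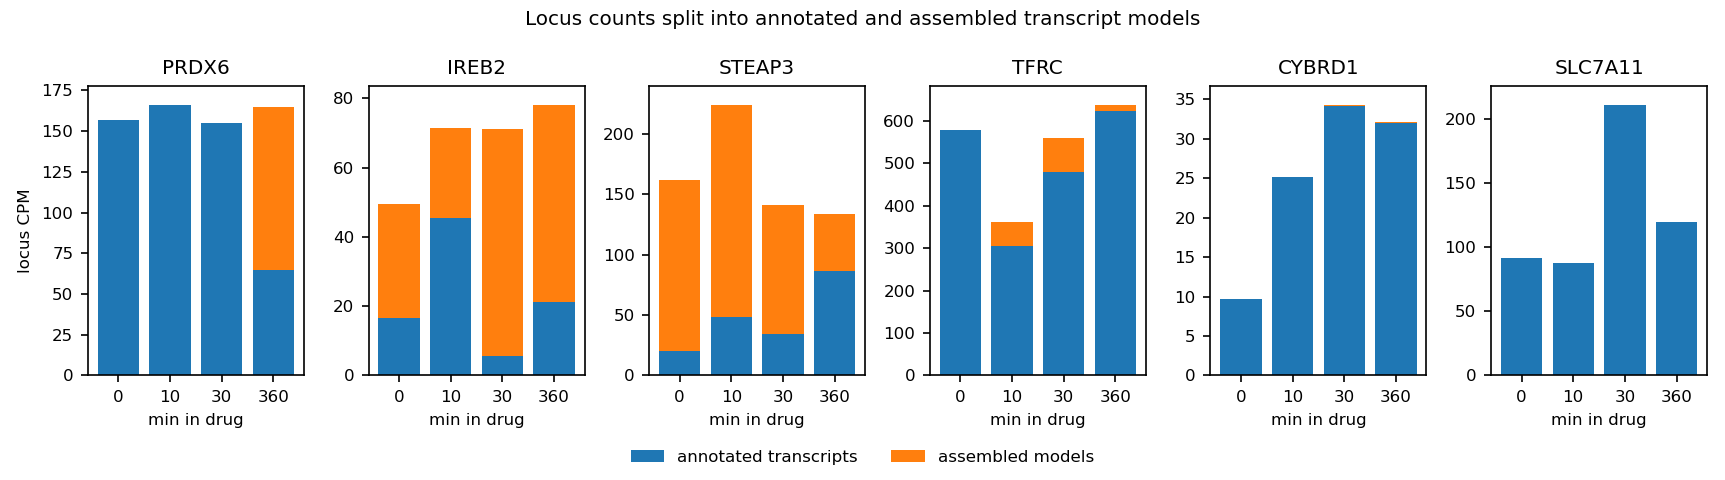
CPM of 6 assembly loci at 0, 10, 30 and 360 min, split into annotated transcripts (blue) and assembled models (orange), each panel on its own linear axis from 0. PRDX6 keeps its height while assembled models take 99.8 CPM at 360 min, IREB2 and STEAP3 are mostly assembled models in several libraries, and CYBRD1 and SLC7A11 are almost wholly annotated.

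None of the 4 genes grouped here under NADPH supply passed. PGD and TALDO1, of the pentose phosphate pathway, had 395, 396, 430.5 and 397 CPM and 219.7, 209, 240.4 and 228 CPM. TKT, transketolase, had 484, 620.1, 454 and 448 CPM and was highest in the 10 min library. ME1, malic enzyme, had 74.7, 77.8, 66.2 and 76.0 CPM. All 12 ratios to 0 min in this group lay between 0.887 and 1.28.

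Antioxidant response element cores were looked up in the promoters of the measured genes because NRF2 acts through them. The core searched was TGACNNNGC on both strands, from 250 bases before to 50 after the start, in RefSeq promoters of GRCh38.p14, where overlapping matches on the strands were each counted. Of the 36 measured genes 29 had a promoter entry and 7 of these held a core (24.1%), against 4384 of 27305 promoters in the table (16.1%). The windows below are shown for genes with a core before the start; they are written 5′ to 3′ on the gene's strand with the core in capitals, as its reverse complement where the core lies on the other strand. The KEAP1 windows overlap and lie at chr19:10502807-10502835 and chr19:10502784-10502812 (minus), GCLM at chr1:93909446-93909474 (minus), TXNRD1 at chr12:104215670-104215698 (plus), PGD at chr1:10398853-10398881 (plus), ME1 at chr6:83431170-83431198 (minus) and AIFM2 at chr10:70132829-70132857 (minus).
KEAP1, core from -54: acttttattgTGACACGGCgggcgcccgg
KEAP1, core from -31: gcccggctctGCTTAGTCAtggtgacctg
GCLM, core from -34: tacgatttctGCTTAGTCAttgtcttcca
TXNRD1, core from -99: acacgggctaTGACTTCGCtgttgtcacc
PGD, core from -201: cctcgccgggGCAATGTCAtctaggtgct
ME1, core from -137: tctcctgccaTGACTCAGCgcttctcgca
AIFM2, core from -22: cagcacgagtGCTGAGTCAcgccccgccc
NCOA4 was the other gene with a core, after its start, and TXNRD1 and ME1 held further cores. The 7 genes' ratios to 0 min ran between 0.645 and 1.12 at 10 min, 0.823 and 1.58 at 30 min, and 0.870 and 1.33 at 360 min, and none passed the rule. A match to these letters is a description of the sequence, not of binding, and sequence outside this window was not searched.

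None of the 4 ferroptosis genes passed against 0 min. GPX4 (ENSG00000167468, chromosome 19, 1103926 to 1106791, plus strand), the selenoenzyme that reduces lipid hydroperoxides in membranes, had 175, 164, 179 and 172 CPM, within 1.25-fold of 0 min at every time. AIFM2, also called FSP1, which protects lipids through reduced coenzyme Q, had 19.0, 12.3, 25.1 and 23.2 CPM. It was 2.05-fold higher at 30 min than at 10 min (1.70 to 2.47), with its lowest level in the 10 min library. ACSL4 had 98.9, 80.7, 90.6 and 74.7 CPM from annotated transcripts, and 148, 158, 132 and 156 CPM from the whole locus. LPCAT3, which inserts polyunsaturated chains into phospholipids, had 32.3, 38.8, 26.8 and 27.1 CPM; EMG1 on the opposite strand shares 65.6% of its exon bases at 32.4 to 57.7 CPM, and the use of strand in counting is not given in the sources used here.

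Of the superoxide and peroxide enzymes none passed against 0 min, and GPX1 came closest. GPX1 (ENSG00000233276, chromosome 3, 49357171 to 49358600, minus strand), the cytosolic glutathione peroxidase, had 209, 156, 406 and 368 CPM. The 30 and 360 min libraries lay above the other 2. Its ratios to 0 min were 0.747 at 10 min, 1.94 at 30 min (1.86 to 2.03) and 1.76 at 360 min (1.68 to 1.84). Against the 10 min library it was 2.60-fold higher at 30 min and 2.36-fold higher at 360 min, and both held on the whole locus, at 2.65-fold and 2.39-fold. The transcripts behind the level differed: GPX1-204 had 104, 56.5, 389 and 352 CPM, and GPX1-202 had 103, 97.1, 16.2 and 15.7 CPM.

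SOD2 (ENSG00000112096, chromosome 6, 159669057 to 159745186, minus strand), the mitochondrial superoxide dismutase, had 65.1, 68.7, 53.5 and 62.3 CPM. Its lowest ratio to 0 min was 0.821 at 30 min. The long transcript SOD2-210 held 52.4%, 52.7%, 84.2% and 58.9% of its annotated counts, so that per length SOD2 had 97.8, 102, 28.3 and 81.0 TPM, a unit that scales counts by transcript length and library total. Its low TPM at 30 min came with a higher share of the long transcript and a CPM near that of the other libraries. SOD1, the cytosolic enzyme, had 215, 159, 198 and 209 CPM, and catalase, CAT, had 99.7, 93.9, 98.3 and 89.7 CPM.

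In the iron uptake group the calls against 0 min came from CYBRD1 and STEAP3 alone, and those of STEAP3 did not hold on its locus. CYBRD1 (ENSG00000071967, chromosome 2, 171522247 to 171558133, plus strand), a membrane ferric reductase also called duodenal cytochrome b, had 9.66, 25.5, 34.0 and 31.9 CPM. All 3 treated libraries lay above the untreated library, whose value rests on 550 deposited counts. It was 2.64-fold higher at 10 min (2.16 to 3.23), 3.52-fold at 30 min (2.90 to 4.29) and 3.31-fold at 360 min (2.72 to 4.03) than at 0 min, and locus values were 2.60, 3.53 and 3.31-fold. These ratios share the low 0 min library: set against the median of the other 3 libraries in place of 0 min, the 10 min log2 ratio was -0.33. CYBRD1-201 led at 0, 30 and 360 min, with 7.75, 29.1 and 25.6 CPM, and CYBRD1-202 had 12.1 CPM at 10 min beside 11.9 CPM of CYBRD1-201.

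STEAP3 (ENSG00000115107, chromosome 2, 119223831 to 119265652, plus strand), the endosomal reductase that prepares transferrin iron for export from the endosome, had 20.1, 49.0, 34.0 and 85.9 CPM from annotated transcripts. It was 2.44-fold higher at 10 min (2.12 to 2.81) and 4.27-fold higher at 360 min (3.75 to 4.88) than at 0 min. Assembled models of the locus had 141, 175, 107 and 47.8 CPM, more than the annotated transcripts at 0, 10 and 30 min and less at 360 min, and the locus had 161, 224, 141 and 134 CPM. On that measure the ratios to 0 min were 1.38, 0.875 and 0.830, so that at 30 and 360 min the locus lay below its 0 min level.

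SLC11A2, the divalent metal transporter DMT1, had 47.1, 62.9, 44.4 and 28.3 CPM. Its 360 min level was 0.601 of that at 0 min, which did not pass, and it was 2.22-fold lower at 360 min than at 10 min (1.97 to 2.51).

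TFRC (ENSG00000072274, chromosome 3, 196027183 to 196082189, minus strand), the transferrin receptor, had 577, 308, 477 and 620.2 CPM. The 10 min library was low, with a ratio to 0 min of 0.534 (0.515 to 0.555) that did not reach 2-fold, and the other ratios were 0.826 and 1.08. Assembled models held 56.4 CPM at 10 min and 80.3 CPM at 30 min, and with them the locus ratios were 0.625, 0.969 and 1.10. TFRC was 2.01-fold higher at 360 min than at 10 min from annotated transcripts, and 1.76-fold on the locus. The first of these values lay at the 2-fold limit, where the choice between the scaling used here and library totals decides the call.

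TFRC and the ferritins are regulated after transcription through iron-responsive elements, hairpins with a bulged C and a CAGTGN loop that iron regulatory proteins bind when iron is scarce, stabilising TFRC mRNA and blocking ferritin translation. The elements are shown to mark which of these mRNAs hold a match, and elements with other stems or loops would be missed by the search below. A search of GENCODE 29 transcripts for CNNNNNCAGTGN with a last base other than G and a paired stem found a match in 73 of 15980 measured genes (0.457%), 3 of the 36 measured genes among them (FTH1, FTL and TFRC), and in SLC40A1. The sites below are DNA of GRCh38, 5′ to 3′ on the gene's strand, with the bulged C and the loop in capitals. They lie in the 5′ UTR of FTH1 (chr11:61967575-61967601, minus), FTL (chr19:48965336-48965362, plus) and SLC40A1 (chr2:189580662-189580688, minus), and in the 3′ UTR of TFRC (minus) at chr3:196050464-196050490, chr3:196050511-196050537, chr3:196050576-196050602 and chr3:196050980-196051006.
FTH1: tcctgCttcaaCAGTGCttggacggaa
FTL: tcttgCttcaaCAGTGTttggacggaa
SLC40A1: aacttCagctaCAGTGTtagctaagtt
TFRC, from 196050464: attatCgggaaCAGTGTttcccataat
TFRC, from 196050511: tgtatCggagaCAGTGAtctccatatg
TFRC, from 196050576: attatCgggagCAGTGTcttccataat
TFRC, from 196050980: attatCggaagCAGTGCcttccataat
Transcripts with an element carried 99.0% to 99.2% of TFRC's annotated counts, and 61.2%, 74.2%, 62.0% and 61.4% of those of FTH1 at 0, 10, 30 and 360 min.

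Per length the 2 ferritin chains were the most abundant of these genes, and their CPM stayed within 1.25-fold of 0 min. FTH1 (ENSG00000167996, chromosome 11, 61959718 to 61967660, minus strand), the heavy chain with ferroxidase activity, had 1083, 1118, 1126 and 1117 CPM. FTL (ENSG00000087086, chromosome 19, 48965301 to 48966878, plus strand), the light chain, had 1859.7, 2233, 2037 and 1870.5 CPM, at most 1.20-fold above 0 min. Both keep close to the untreated level through 360 min. FTH1 shares 62.4% of its exon bases with BEST1 on the opposite strand, which had at most 2.70 CPM. NCOA4, the receptor that delivers ferritin to autophagy, had 192, 169, 158 and 167 CPM, and SLC40A1 had 0.439, 0.214, 0.291 and 0.127 CPM, on 25, 12, 16 and 7 counts.

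The iron regulatory proteins are encoded by ACO1 (IRP1, also the cytosolic aconitase) and IREB2 (IRP2). ACO1 had 217, 244, 197 and 219.7 CPM and did not pass. IREB2 (ENSG00000136381, chromosome 15, 78437431 to 78501456, plus strand) had 16.6, 45.9, 5.69 and 21.2 CPM from annotated transcripts. That is 2.76-fold higher at 10 min (2.37 to 3.22) and 2.93-fold lower at 30 min (2.26 to 3.83) than at 0 min. Assembled models of the same locus had 33.0, 26.1, 65.3 and 56.8 CPM, and the whole locus had 49.6, 71.5, 71.1 and 78.0 CPM. On the locus the 3 treated libraries were alike and above the untreated library, with ratios of 1.44, 1.43 and 1.57, none past the rule.

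The most counted annotated transcript was the same in all 4 libraries for 27 of 36 genes, and the share over all genes is not given here. Its part of a gene's counts could still move. BACH1-201 held 86.1% at 0 min and 50.9% at 30 min, and OSGIN1-203 held 98.1% at 0 min and 52.1% at 360 min. The most counted transcript differed for GCLC, NQO1, TXNRD1, TKT, GPX1, SLC11A2, STEAP3, CYBRD1 and IREB2. In CPM the exchange was widest for TXNRD1, with TXNRD1-212 at 822, 952, 0.836 and 963 CPM and TXNRD1-205 at 40.3, 50.7, 1488 and 43.5 CPM. The 30 min library alone had TXNRD1-205 on top, while the summed TXNRD1 level there was 1.42 of that at 0 min. The part of read assignment between similar models in this exchange was not tested.

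Per length, levels of the genes could be ranked. By mean TPM over the 4 libraries FTL (5243 TPM) and FTH1 (2751 TPM) led, then TXNRD1 (972 TPM), PRDX1 (769 TPM) and GPX1 (694 TPM). FTL and FTH1 did not overlap each other or any other gene across the libraries, with 4861 to 5996 TPM and 2648 to 2797 TPM. PGD, GPX4, TKT and SOD1 followed at means of 564, 502, 485 and 459 TPM, with ranges that overlapped. NQO1 (174 TPM), KEAP1 (70.9 TPM), HMOX1 (64.1 TPM) and NFE2L2 (42.9 TPM) lay in the middle. At the low end were CYBRD1 (16.8 TPM), AIFM2 (14.4 TPM), IREB2 (12.2 TPM) and OSGIN1 (7.33 TPM). This order rests on annotated transcripts alone and leaves out assembled models. For IREB2 those models held 33.0, 26.1, 65.3 and 56.8 CPM at 0, 10, 30 and 360 min.

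**Figure D4:**
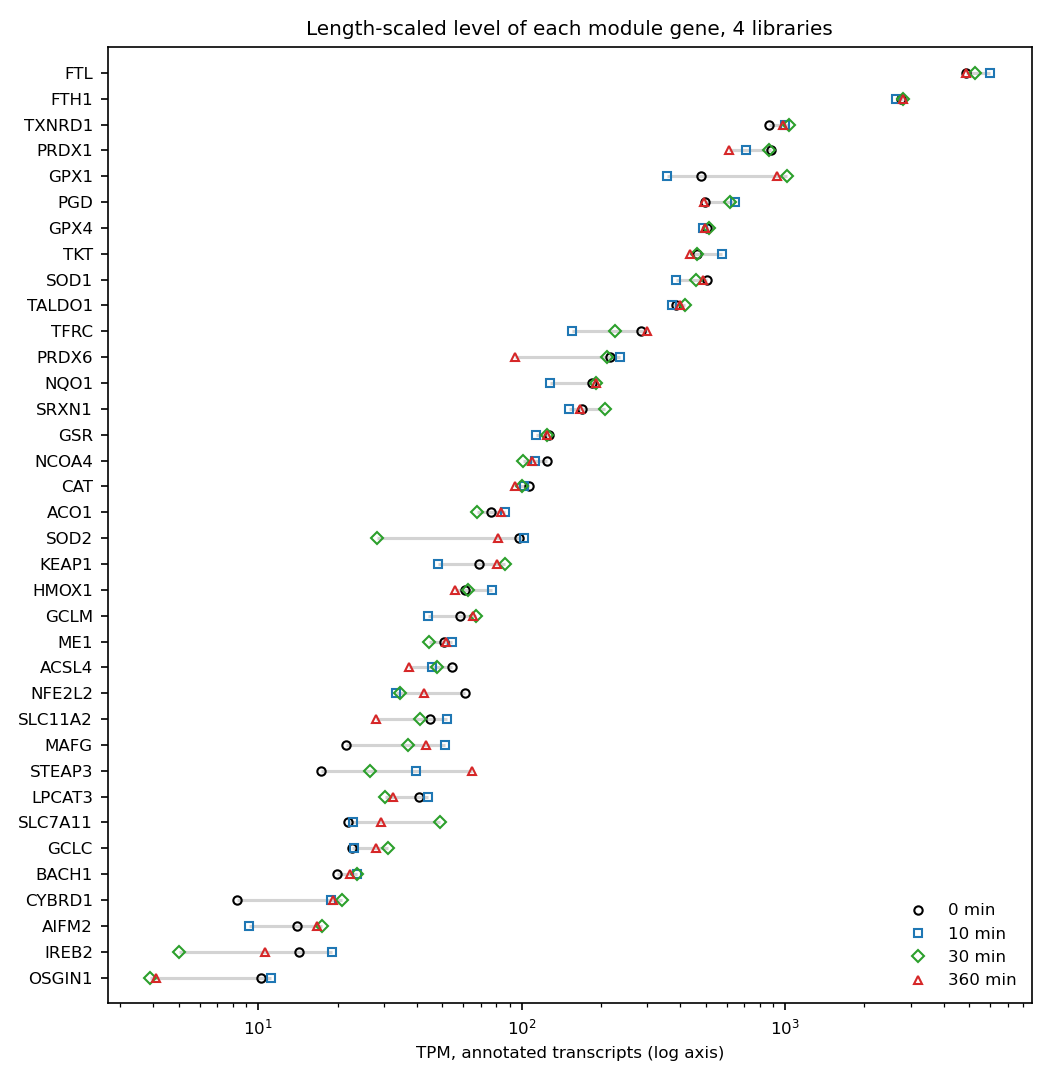
TPM of annotated transcripts (log axis) for the 36 measured genes, ordered by their mean, with 1 marker per library. Ferritin chains lead, OSGIN1 is last, and wide bars mark GPX1, PRDX6, SOD2, STEAP3 and IREB2.

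Between treated libraries 3 to 6 genes passed. At 360 min against 10 min, 6 of 36 genes passed, GPX1 and TFRC higher and OSGIN1, PRDX6, SLC11A2 and IREB2 lower, where 17.1% of all genes did. At 360 min against 30 min, 3 of 35 passed, STEAP3 and IREB2 higher and PRDX6 lower, where 6.75% of all genes did. At 30 min against 10 min, 6 of 36 passed, KEAP1, SLC7A11, AIFM2 and GPX1 higher and OSGIN1 and IREB2 lower, where 14.4% of all genes did. On whole loci these became 2 (GPX1 higher and SLC11A2 lower, with 13.4% of loci passing), 0 (2.54%) and 4 of 34 genes (the same 4 higher at 30 min than at 10 min, with 10.4%).

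Other genes of the same pathways, from lists of their known members also chosen with earlier results known, were read in the same way. Their counts stand beside the 14.5%, 6.79% and 6.59% of all genes that passed at 10, 30 and 360 min. Of 8 further NRF2 partners measured, none was higher at any time. MAFK, a small MAF, had 80.3, 29.6, 36.6 and 82.6 CPM, 2.71-fold lower at 10 min (0.476 on the locus) and 2.19-fold lower at 30 min (0.544 on the locus) than at 0 min. MAFF, another small MAF, was 2.15-fold lower at 360 min, with 9.48 CPM against 20.4 CPM at 0 min. SQSTM1, the autophagy receptor that binds KEAP1, had 326, 397, 491 and 567 CPM, at most 1.74 of 0 min.

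Of 23 further NRF2 targets measured, 21 were compared at each time. At 10 and at 30 min 2 higher and 1 lower passed, and at 360 min 1 each way. Of all genes 14.5%, 6.79% and 6.59% passed at 10, 30 and 360 min. CBR1, a carbonyl reductase that reduces doxorubicin to its alcohol, had 45.4, 103, 96.1 and 92.8 CPM. It was 2.26-fold (2.06 to 2.48), 2.12-fold and 2.04-fold higher than at 0 min, and its locus gave 2.23, 2.13 and 2.05-fold. All of these ratios share the untreated library, where CBR1 was lowest. TRIM16 was 3.81-fold higher at 10 min and 3.48-fold at 30 min, but a near copy, TRIM16L, makes its counts uncertain. ABHD4 was 2.01-fold lower at 10 min and AKR1B10 2.30-fold lower at 360 min. ABCC3 was 2.54-fold lower at 30 min from annotated transcripts, where its locus ratio was 0.998.

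In glutathione metabolism 24 further genes were measured. At 10 min GLRX, glutaredoxin, was 2.16-fold higher (19.0 CPM, against 8.80 CPM at 0 min) and GSTM2 2.25-fold higher, and GSTM2 has near copies in its family. At 30 min LANCL1 was 4.90-fold lower from annotated transcripts, with a locus ratio of 0.996, and at 360 min none passed. In the thioredoxin and peroxiredoxin system 15 genes were measured and 2 passed, both in the 10 min comparison, where 14.5% of all genes passed. TXNIP, the thioredoxin-binding protein, had 77.4 CPM at 10 min, against 5.87 CPM at 0 min, 13.2-fold higher (10.6 to 16.7), and 3.71 CPM at 30 min and 3.97 CPM at 360 min. TXNL1 was 2.02-fold lower at 10 min.

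Of 26 further genes of ferroptosis defence and lipid peroxidation, 25 were compared at each time. SAT1, which catabolises polyamines, was 2.87-fold higher at 10 min, with 119 CPM against 41.5 CPM at 0 min. ACSL3 was 2.03-fold lower at 10 min, where its locus ratio was 0.923. At 30 min ATF3, a stress transcription factor, was 3.59-fold higher (3.00 to 4.33), with 38.4 CPM against 10.7 CPM, and GCH1, the first enzyme of tetrahydrobiopterin synthesis, was 2.29-fold higher (1.79 to 2.94). These 2 passed on their loci too, beside SLC7A11 in the same library. At 360 min none passed.

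Of 16 further genes of iron transport and regulation, 15 were compared at 10 min and 14 at the later times. At 10 min 1 was higher and 4 lower, at 30 min 1 was lower, and at 360 min 3 were lower. Of all genes 14.5%, 6.79% and 6.59% passed at these times. Most calls again lay in the 10 min library, where all genes had most. STEAP2, a metalloreductase, was 2.03-fold higher at 10 min, with 15.9 CPM against 7.85 CPM at 0 min. SLC39A8, a zinc and iron importer, was 2.06-fold lower at 10 min. HFE, a partner of the transferrin receptor, was 2.46-fold lower at 360 min, with 4.73 CPM against 11.6 CPM, and its locus ratio was 0.408. BMP6, an inducer of hepcidin, was lower at all 3 times (2.14, 2.25 and 2.08-fold), and SLC25A37, the mitochondrial iron importer mitoferrin, at 10 and 360 min (2.81 and 2.24-fold). Their locus ratios at those times were 0.941, 0.791 and 0.885 for BMP6 and 1.98 and 1.01 for SLC25A37, so neither was lower by the rule on its whole locus.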

How the data were processed

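Poly(A) RNA of AC16 cells was sequenced at 0, 10, 30 and 360 min, 1 library each. The authors deposited estimated counts per assembled locus and per transcript, with no scaling for depth or length; HISAT2, DESeq2 and GRCh38 are named, without versions, in the submitters' processing notes, and for the counter, the annotation and strand the tool or setting is not given in the sources used here. Annotated transcripts were summed per GENCODE 29 gene and scaled to CPM with TMM factors (1.001, 1.007, 0.996 and 0.996) from edgeR 4.0.16 in R 4.3.3. A locus was matched to a gene where its counts, less those of its assembled models, equalled the gene's annotated sum, alone or with up to 4 neighbours within 100 kb. Intervals (exact Clopper-Pearson, conditional binomial, SciPy 1.17.1) used counts divided by 4, on the assumption, not settled by the files, that 1 read pair gave about 4 of them (13789153 to 14218970 pairs per library); a count of 0 entered at a floor of 3 pairs. They cover counting error only, as no molecular identifiers are recorded. Python 3.11.15, pandas 2.3.3, numpy 2.4.6 and matplotlib 3.10.9 served the rest. The size rule was tested on counts simulated with counting error only, which cannot test it against variation between libraries. With 1 library per group neither DESeq2's nor edgeR's test was run.

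The members and lists were chosen with earlier results of these data known. Described singly are members past the size rule against 0 min and NFE2L2, KEAP1, BACH1, HMOX1, NQO1, SLC7A11, GCLM, GPX4, TFRC, FTH1, FTL and SOD2; from other lists, the genes past the rule or, with fewer than 2, the 2 with the largest ratios. SQSTM1 and the calls between treated libraries were added after their values were seen. A few genes that meet this rule are not reported here. Promoters are from RefSeq (GRCh38.p14). Alternatives were total-count and median-of-ratios scaling, filters at 1 and 10 CPM and none, undivided counts, a 1.5-fold rule, whole loci, genes with the same leading transcript, and a baseline of the other 3 libraries.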

Additional observations from a re-analysis of the deposited data

How the results depend on the processing

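Without replicates no interval covers variation between libraries. No paired analysis was possible because each time has 1 library. Scaling by total counts or median-of-ratios factors, undivided counts and a 10 CPM filter moved no count of calls by 1.5 times. At 10 min against 0 min, 4 members and 1728 genes passed. Genes numbered 2952 of 15611 with a 1 CPM filter and 3560 of 57891 with none. On whole loci 1097 of 10666 passed, and at 1.5-fold 3994 of 11885 (33.6%). Members numbered 1 of 34 on whole loci, 1 with the same leading transcript and 8 of 36 at 1.5-fold. At 30 min, 4 members and 784 genes passed. Genes numbered 1475 of 15089 at 1 CPM, 1889 of 57891 with no filter and 303 of 10431 on whole loci. With the same leading transcript 482 of 9338 passed, and at 1.5-fold 1842 of 11538 (16.0%). Members numbered 2 of 34 on whole loci and 9 of 36 at 1.5-fold. At 360 min, 4 members and 759 genes passed. Genes numbered 1352 of 15065 at 1 CPM, 1702 of 57891 with no filter and 202 of 10393 on whole loci. With the same leading transcript 473 of 9264 passed, and at 1.5-fold 1573 of 11517 (13.7%). Members numbered 1 of 34 on whole loci and 7 of 36 at 1.5-fold. Between treated libraries, members numbered 2 on whole loci and 11 at 1.5-fold for 360 against 10 min (38.1% of all genes at 1.5-fold), 0 and 5 for 360 against 30 min (15.5%), and 4 and 9 for 30 against 10 min (33.4%). Of 244 values of the 17 singly described members, 213 stayed within the counting interval and 4 turned round. The 213 include 43 from the leading-transcript setting, which drops genes but cannot alter a value. A further 51 each came from the total-count and median-of-ratios scalings, which moved none. On whole loci 38 stayed, 7 moved and 3 turned round. Against the median of the other 3 libraries 30 stayed, 20 moved and 1 turned round. The whole-locus log2 ratio was 0.52 for IREB2 at 30 min, 0.068 for PRDX6 at 360 min and -0.27 for STEAP3 at 360 min. In these 3 cases assembled models hold the difference. Against the median of the other 3 libraries it was -0.33 for CYBRD1 at 10 min, whose 0 min library is the low one.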

Other observations

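Neighbouring pathways that use the same iron and selenium were read against 0 min by the same size rule, which 14.5%, 6.79% and 6.59% of all genes passed at 10, 30 and 360 min. Of 19 measured genes of iron-sulfur cluster assembly, IBA57, a mitochondrial assembly factor, passed as lower at 10 min, with 8.79 CPM against 19.6 CPM at 0 min, a ratio of 0.448 (0.360 to 0.556). NUBP1, a cytosolic scaffold, came next at 0.505 and did not pass on annotated transcripts, while on its locus the ratio of 0.498 did. The list's median log2 ratio was -0.33 at 10 min, -0.03 at 30 min and -0.02 at 360 min, beside 0.01, -0.00 and 0.01 over all measured genes. None of the list passed at 30 or 360 min.

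Of 17 measured genes of selenoprotein synthesis and selenoproteins, 16 were compared at each time. SELENOP, a selenium carrier, was 2.04-fold higher at 10 min (1.73 to 2.41), with 30.9 CPM against 15.2 CPM at 0 min. SEPHS1 had 8.99 CPM at 10 min, against 23.6 CPM at 0 min, a ratio of 0.382, and 0.551 on its locus. SELENON had 117 CPM at 0 min, 160 CPM at 10 min, 58.5 CPM at 30 min and 59.0 CPM at 360 min. Its ratio to 0 min was 1.36 at 10 min. The ratios of 0.499 at 30 min and 0.503 at 360 min lay on either side of the 2-fold limit. SELENON has no locus of its own in the assembly, so it was not compared on that measure.

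None of 16 measured genes of heme synthesis and breakdown passed at any time. CPOX, coproporphyrinogen oxidase, had the largest ratio, 1.64 at 360 min (1.48 to 1.82), and FLVCR1, a heme exporter, had a ratio of 0.666 at 30 min. None of 9 measured genes of superoxide sources and other scavengers passed among the 6 compared. MT1X, a metallothionein with near copies, had a ratio of 0.614 at 30 min, and CCS, the copper chaperone of SOD1, had 1.45 at 10 min.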
